A study of Arabidopsis thaliana with 12 samples.

Results

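The comparison set untreated seedlings of the Arabidopsis thaliana double mutant ap1/cal against untreated seedlings of the wild type Col-0. It used 6 of the 12 libraries of the series, 3 of ap1/cal Mock and 3 of Col-0 Mock, all from whole seedlings collected 7 days after germination and kept for 24 h on plates without sodium nitroprusside (SNP), a donor of nitric oxide (NO). The remaining 6 libraries, 3 each of ap1/cal and Col-0 seedlings kept for 24 h on 1 mM SNP, served as a separate set in which the same genotypes could be compared again. The genes examined were those listed in both deposited tables whose value reached 10 in at least 3 of the 6 Mock libraries after joint rescaling, which held for 20042 of the 21623 shared genes (92.7%). All plants carried the Col-0 background as far as the labels and methods say, and ap1/cal was a single line whose alleles are not named in the sources used here. Each genotype was deposited in a table of its own, so that genotype, table, seed lot and DNA linked to the mutations cannot be told apart. Since whole seedlings were used, fewer cells of a type and less RNA per cell cannot be told apart either.

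AP1 and CAL encode closely related MADS-box transcription factors that give young floral meristems their identity. Plants without both genes form inflorescence meristems in place of flowers, over and over, and build a cauliflower-like head. The study used this mutant as a source of meristem tissue, and the seedlings described here were sampled before that head forms. AP1 was not analysed here. CAL was listed in the ap1/cal table alone, at deposited values of 2.93, 3.47 and 5.79 in replicates 1, 2 and 3, under the minimum value used here. The targeted genes therefore gave no check of the genotype labels.

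Depth, estimated from the smallest step between values, ranged from 27.3 to 59.7 in units of 1e6 reads over the 6 Mock libraries. On the log2 scale, Pearson's r across genes, which are not independent replicates, was 0.983 to 0.995 between replicates of a genotype and 0.979 to 0.990 between libraries of different genotypes. Chloroplast genes made up 1.87, 1.54 and 3.45% of the values in ap1/cal replicates 1, 2 and 3, and 2.18, 1.29 and 1.32% in Col-0 replicates 1, 2 and 3. ap1/cal replicate 3 and Col-0 replicate 1 thus had the highest share in their groups. The summed level of the seed markers was 52.8, 59.3 and 356 in ap1/cal, against 28.4, 30.7 and 18.0 in Col-0, with ap1/cal replicate 3 far above the rest. Of the marker lists, 5 of 5 leaf, 6 of 7 root, 2 of 7 seed and 2 of 7 flower and pollen genes reached the minimum. Summed leaf markers overlapped between the genotypes, at 1.25e+06 to 1.61e+06 in ap1/cal and 1.13e+06 to 1.27e+06 in Col-0. All 5 leaf markers had positive log2 fold changes, with a median of 0.23, and 0 were called. Also overlapping were summed root markers (2592 to 2734 in ap1/cal, 2228 to 2703 in Col-0) and summed flower markers (74.4 to 99.4 in ap1/cal, 84.6 to 89.0 in Col-0). Counts are therefore also given without these libraries, and the part of these markers in the results was not tested.

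A gene was called when its Benjamini-Hochberg adjusted p in limma was below 0.05 and its level differed by at least 1.5-fold. Of the 20042 genes, 206 were called (1.03%), of which 134 were lower in ap1/cal (0.669% of all tested genes) and 72 were higher (0.359%). The median log2 fold change over all tested genes was 0.01, and 90% of the genes lay between -0.39 and 0.39. Of the called genes, 87 differed by more than 2-fold and 25 by more than 4-fold. The values of the genotypes did not overlap for any of the 206 called genes, against 23.3% of all tested genes, but 11 of the 206 reached the minimum of 10 in 1 genotype alone and had to separate. Calls thus split as 35.0% higher and the rest lower, but this share depended on the scaling: it was 17.6% after scaling by library totals and 26.7% with the values as deposited. It was 19.9% when all 12 libraries were rescaled and fitted together, which also changed the estimate of the spread. The median of all genes moved to -0.07 after scaling by library totals, and all 206 genes kept their sign.

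The number of calls depended on single libraries. It was 65, 61 and 81 without ap1/cal replicate 1, 2 or 3, and 184, 352 and 81 without Col-0 replicate 1, 2 or 3. Without ap1/cal replicate 3 and Col-0 replicate 1 together, a comparison chosen after seeing the data, 235 genes were called, with 52.3% of them higher, and 141 of the 195 original calls that could be tested were still called. Of the 206 genes, 49 could be tested, and were called, in all 6 comparisons that left out 1 library.

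The largest fall was at AT5G24240, which is annotated as a phosphatidylinositol 4-kinase gamma-like protein. Its values were 13.2, 13.4 and 17.3 in ap1/cal, against 944, 801 and 965 in Col-0. All 3 ap1/cal libraries lay close together, at a 58.0-fold lower level (log2 fold change -5.86 ± 0.14 SE, limma adjusted p = 3.7e-07). Under SNP AT5G24240 was also lower in ap1/cal (log2 fold change -6.25). AT5G24240 overlaps 1 gene on the opposite strand, and whether the counting used the strand is not given in the sources used here.

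MRD1, named for its lower level in the methionine-overproducing mutant mto1, was also far lower in both treatments. Its values were 18.7, 34.3 and 59.2 in ap1/cal, against 1066, 772 and 864 in Col-0 (log2 fold change -4.69 ± 0.34 SE, limma adjusted p = 0.0012, and -4.54 under SNP). The groups were far apart, but 98.1% of the 75-base windows of MRD1 also occur in another annotated gene and it overlaps 2 genes on the opposite strand, so its reads may not be its own. Its neighbour HEI10, which promotes meiotic crossovers, had 20.8, 38.5 and 31.2 in ap1/cal and 61.9, 125 and 125 in Col-0 (log2 fold change -1.73, adjusted p = 0.037). HEI10 shares 38.9% of its windows with other genes, and its call was lost without any 1 of 5 libraries, all but Col-0 replicate 1. QQS, an Arabidopsis-specific gene that acts on the balance of carbon and nitrogen, was also lower, with 40.2, 28.5 and 25.5 in ap1/cal and 125, 160 and 107 in Col-0. It fell by 2.03 on the log2 scale in Mock (adjusted p = 0.0043), and its log2 fold change under SNP was -1.42.

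Among the rises, AT1G75945, an uncharacterized protein, went furthest. It had 117, 143 and 194 in ap1/cal, against 0.757, 4.69 and 3.94 in Col-0 (log2 fold change 5.34 ± 0.43 SE, adjusted p = 0.0019). Col-0 was at 1 to a few reads, so the ratio is loosely known, with a 95% interval of 4.37 to 6.32. The leucine-rich repeat transmembrane protein kinase AT1G29720 had 487, 438 and 462 in ap1/cal, against 66.6, 77.0 and 89.0 in Col-0, a 5.94-fold higher level (adjusted p = 7.3e-05). GH9B15, a glycosyl hydrolase of the family that holds plant endoglucanases, had 127, 123 and 120 in ap1/cal and 31.8, 16.9 and 23.6 in Col-0 (log2 fold change 2.35, adjusted p = 0.0038). AT1G29720 and GH9B15 did not overlap between the genotypes, but this held for every called gene and was a condition for naming them. AT1G75945 reached the minimum in ap1/cal alone, so that its separation follows from the filter. Each was also higher in ap1/cal under SNP, with log2 fold changes of 4.62 for AT1G75945, 2.28 for AT1G29720 and 2.42 for GH9B15. AT5G24240, MRD1, AT1G29720 and GH9B15 stayed called in each alternative that was tried, and AT1G75945 in each of the 17 in which it could be tested, which left out those without an ap1/cal library.

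**Figure D1:**
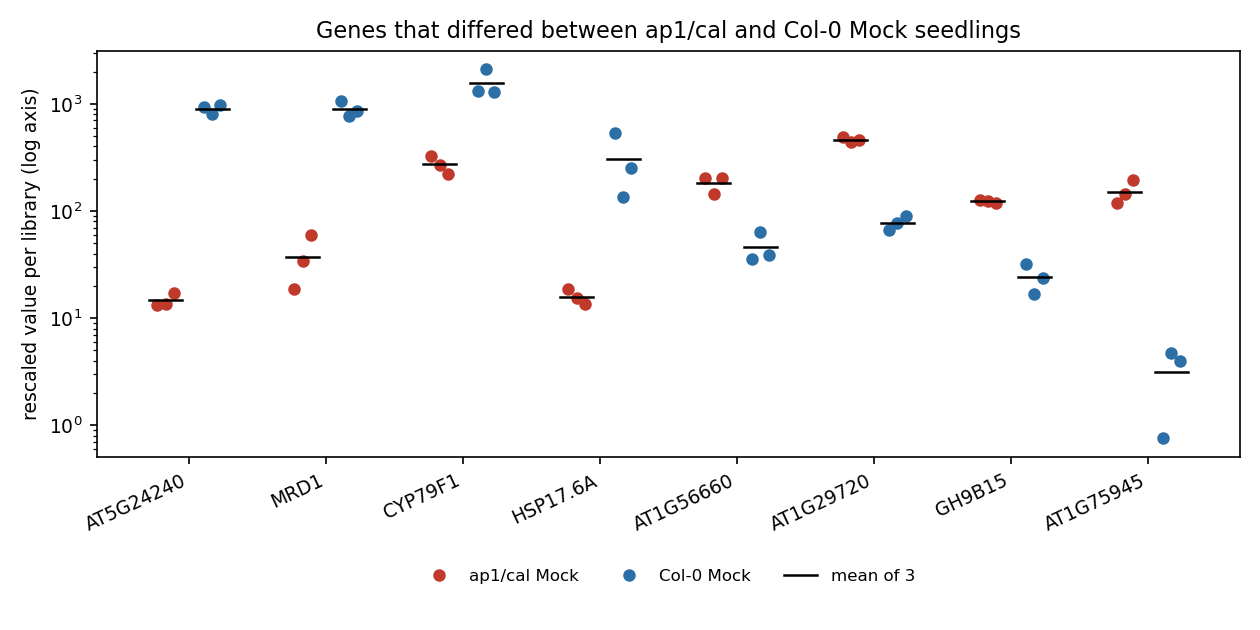
Rescaled value per library on a log axis for selected genes called in Mock, with 3 ap1/cal libraries left of 3 Col-0 libraries for each gene and a bar at the mean of 3. For AT5G24240 the ap1/cal points sit at 13.2 to 17.3, below the Col-0 points at 801 to 965, and AT1G75945 shows the opposite order.

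Aliphatic glucosinolates are sulphur-rich defence compounds that Arabidopsis makes from methionine. The amino acid is first lengthened in cycles of transamination, condensation, isomerisation and decarboxylation, the product is turned into the core structure by cytochromes P450 and sulphotransferases, and flavin monooxygenases then oxidise the side chain. Genes of each of these stages were called lower in ap1/cal. Of 26 listed genes of the pathway 24 reached the minimum value, and of these 13 were called lower and 0 higher, against 0.669% called lower among all genes, and the list median was -1.14 on the log2 scale, against 0.01 over all genes. In 22 of the 24 genes the log2 fold change was negative. This list and the other lists below were chosen with earlier results of these data known, so their counts are descriptions.

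In chain elongation, BCAT4, the aminotransferase of the first step, had 354, 265 and 237 in ap1/cal, against 1182, 1249 and 784 in Col-0 (log2 fold change -1.90 ± 0.20 SE, limma adjusted p = 0.0043). MAM1, which carries out the condensation, had 1048, 934 and 748 in ap1/cal and 2405, 3524 and 2369 in Col-0. As in every called gene, the groups did not overlap at MAM1 (log2 fold change -1.59). The isomerase subunits IPMI2 and IPMI1 had log2 fold changes of -1.52 and -1.44, the dehydrogenase IMD1 had -1.33, and BAT5, which carries the keto acids across the plastid membrane, had -1.23. MAM3, which can also make long chains, was not called, with 471, 531 and 398 in ap1/cal and 446, 622 and 334 in Col-0.

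In core synthesis, CYP79F1, which converts elongated methionine to aldoximes, fell most. It had 325, 267 and 222 in ap1/cal, against 1312, 2104 and 1291 in Col-0, a 5.67-fold lower level (log2 fold change -2.50 ± 0.20 SE, limma adjusted p = 0.0019). Its neighbour CYP79F2 differed less, with 259, 243 and 172 in ap1/cal and 432, 669 and 407 in Col-0 (log2 fold change -1.15). CYP83A1, the next enzyme, had a log2 fold change of -1.62, and the sulphotransferases SOT17 and SOT18 had -1.13 and -0.78. GSTU20, a glutathione transferase that is outside the list and is tied to this pathway by earlier work, had 2490, 2342 and 2114 in ap1/cal and 6292, 7515 and 5665 in Col-0 (log2 fold change -1.48, adjusted p = 0.0015). SUR1, the C-S lyase that aliphatic and indolic glucosinolates share, had a log2 fold change of -0.51 and missed the fold threshold, with an adjusted p of 0.041. In side-chain modification, FMOGS-OX1 and FMOGS-OX3 were called, at -1.74 and -1.50, while FMOGS-OX4 was not, at -0.29.

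The MYB transcription factors that switch on these enzymes gave no call. MYB28 had 731, 769 and 596 in ap1/cal and 707, 1061 and 885 in Col-0, and these values overlapped. MYB29 had 166, 148 and 109 in ap1/cal and 192, 348 and 243 in Col-0, without overlap (log2 fold change -0.86, adjusted p = 0.10). MYB76 was scarce, with 9.10, 11.7 and 2.98 in ap1/cal and 26.4, 37.6 and 27.4 in Col-0 (log2 fold change -1.96, adjusted p = 0.068).

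**Figure D2:**
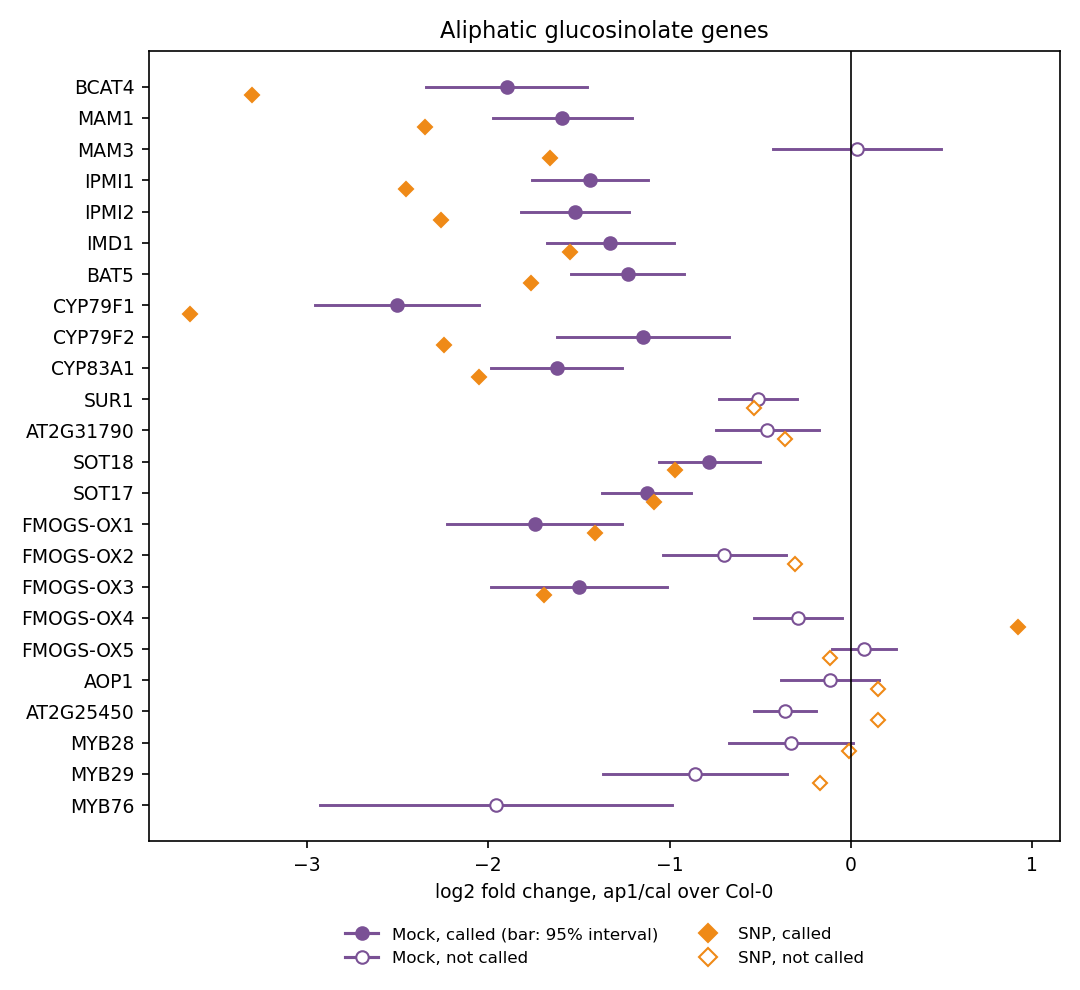
Log2 fold change of ap1/cal over Col-0 for each tested aliphatic glucosinolate gene, with circles for Mock (bars are 95% confidence intervals) and diamonds for SNP, filled where called. The 13 called Mock values run from -2.50 at CYP79F1 to -0.78 at SOT18, and MAM3 lies at 0.03 in Mock and at -1.66 under SNP.

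All 13 genes called in Mock were also called lower in ap1/cal under SNP, where 9.04% of all tested genes were called lower. Their log2 fold changes ran from -3.64 to -0.97 there, and the list median under SNP was -1.41. The genotype difference itself changed with SNP (called for the difference between the contrasts, which held for 14.6% of all genes) at BCAT4, IPMI1 and IPMI2, where it was larger under SNP, and at MAM3 and FMOGS-OX4. FMOGS-OX4 was the exception in direction, with a log2 fold change of 0.92 under SNP. The libraries were uneven within genotypes: in all 13 genes Col-0 replicate 2 was the highest of the Col-0 libraries and ap1/cal replicate 3 the lowest of the ap1/cal libraries. Between 10 and 14 genes of the list were called lower when any 1 library was left out.

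Genes that act when glucosinolates are broken down did not move together. TGG2, a myrosinase that starts the breakdown, was higher, with 1463, 1366 and 1119 in ap1/cal and 463, 709 and 587 in Col-0 (log2 fold change 1.18 ± 0.16 SE, limma adjusted p = 0.010). TGG1, the more abundant partner, was not called, at 0.21. ESM1, which favours isothiocyanates as the product, was higher at 0.65, and ESP, which favours nitriles and epithionitriles, was lower, with 144, 144 and 141 in ap1/cal and 285, 242 and 204 in Col-0 (log2 fold change -0.75). TGG2 lost its call without ap1/cal replicate 1 or 2 or Col-0 replicate 3. ESM1 and ESP lost theirs without any 1 of the ap1/cal libraries. ESM1 was also not called without Col-0 replicate 3 or after scaling by library totals.

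Heat shock proteins are chaperones that bind unfolded proteins, and their genes are induced by heat and by other protein-damaging stress. Of 31 listed genes 28 reached the minimum value, and of these 10 were called lower in ap1/cal and 0 higher, against 0.669% called lower among all genes, the list median was -1.28 on the log2 scale, and 27 of the 28 values were negative. The small heat shock proteins differed most. HSP17.6A had 18.6, 15.5 and 13.6 in ap1/cal, against 531, 135 and 253 in Col-0, a 15.7-fold lower level (log2 fold change -3.97 ± 0.41 SE, limma adjusted p = 0.0043). Its neighbour HSP17.6II had 17.8, 14.2 and 25.3 in ap1/cal and 630, 183 and 375 in Col-0 (log2 fold change -4.17). The HSP20-like gene AT1G53540 had 43.1, 19.9 and 51.7 in ap1/cal and 1222, 340 and 639 in Col-0 (log2 fold change -4.14). The ap1/cal libraries were uniformly low, whereas Col-0 replicate 1 was several times above Col-0 replicate 2 in each of these genes.

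The other called members were AT1G07400 (log2 fold change -3.10), HSP17.4 (-3.14), the chloroplast protein HSP21 (-3.23), HSP18.2 (-1.30), HSP70 (-1.12), the co-chaperone ROF2 (-1.19) and the transcription factor DREB2A (-0.62). HSP21 reached the minimum in Col-0 alone, so that its separation follows from the filter. HSP17.4 shares 58.3% of its windows with other genes and is uncertain. Other genes of thermotolerance were not called: the disaggregase HSP101 had 403, 365 and 385 in ap1/cal and 1669, 638 and 738 in Col-0 (adjusted p = 0.083), and the factor HSFA2 had an adjusted p of 0.093. Col-0 replicate 1 was the highest Col-0 library in 9 of the 10 called genes and Col-0 replicate 2 the lowest in 8.

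The direction was the opposite under SNP, where 8.27% of all tested genes were called higher in ap1/cal. There 26 of the 28 heat shock genes were called higher, with a list median of 1.37 on the log2 scale. Of the 10 genes called in Mock, 9 were called higher under SNP and DREB2A was not called. The difference between the contrasts was called for 26 of the 28 genes. The number called lower in Mock was 17 without Col-0 replicate 2 and 5 or 6 without ap1/cal replicate 1, 2 or 3 or without Col-0 replicate 3, and HSP17.6A, HSP17.6II and AT1G53540 stayed called in each alternative.

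Several genes for transport and for the conjugation of small molecules were likewise low in ap1/cal and highest in Col-0 replicate 1. ABCG40, an ATP-binding cassette transporter, had 5.95, 4.87 and 0 in ap1/cal, against 442, 39.4 and 149 in Col-0 (log2 fold change -5.34 ± 0.92 SE, limma adjusted p = 0.032). The 2-oxoglutarate-dependent oxygenase AT2G38240 had 2.23, 3.10 and 5.85 in ap1/cal and 473, 58.2 and 147 in Col-0 (log2 fold change -5.16). AACT1, an acyltransferase, had 2.23, 0.886 and 7.80 in ap1/cal and 269, 38.5 and 143 in Col-0 (log2 fold change -4.94). The spread within Col-0 was wide at each of these genes. All of them reached the minimum in Col-0 alone, so that their separation follows from the filter. UGT74E2, a glucosyltransferase that acts on the auxin indole-3-butyric acid, had 296, 258 and 474 in ap1/cal and 3614, 998 and 1847 in Col-0 (log2 fold change -2.51). Among 46 tested genes annotated as glutathione transferases 10 were lower, and among 113 genes matched as UDP-glycosyltransferases by words or symbols 9 were lower. In either family 0 were higher, and 0.669% of all genes were called lower. The match need not hold exactly the members of a family: GBSS1 was matched and IAGLU, also called lower, was not. These families were picked by their annotation after values had been seen, so the counts are descriptions.

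Under SNP the difference at ABCG40, AT2G38240, AACT1 and UGT74E2 was smaller or turned, which did not hold for every called gene of these families. Log2 fold changes there were 0.34 for ABCG40, 0.00 for AT2G38240 and 1.02 for UGT74E2, the last called higher, while AACT1 was called lower at -1.45. ABCG40 was not called in Mock without any 1 of the ap1/cal libraries, and UGT74E2 was not called without any 1 of these libraries or Col-0 replicate 3. Of all 134 genes that were lower in ap1/cal in Mock, Col-0 replicate 1 was the highest Col-0 library in 82, Col-0 replicate 2 in 40 and Col-0 replicate 3 in 12. The part of that library's higher chloroplast share in these values was not tested.

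**Figure D3:**
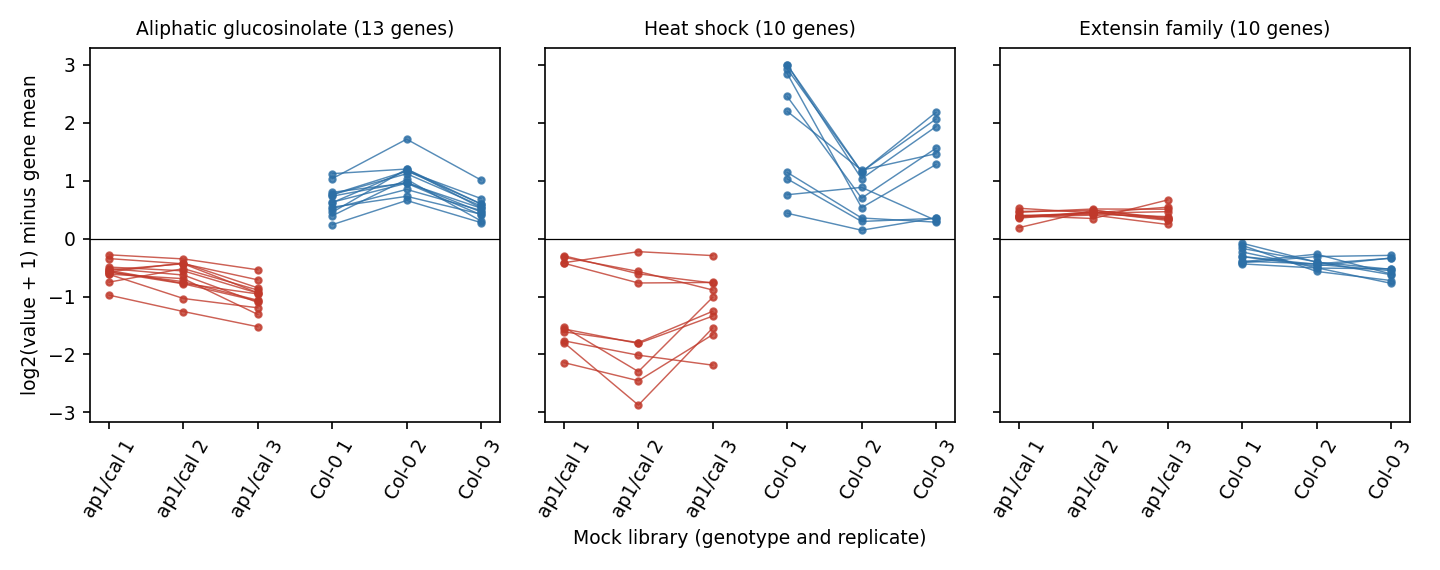
Log2(value + 1) minus the gene's mean over the 6 Mock libraries, 1 line per called gene, for groups of genes named in the text, with the ap1/cal libraries left of the Col-0 libraries. Col-0 replicate 1 is highest in 9 of 10 heat shock genes, and Col-0 replicate 2 in 13 of 13 aliphatic glucosinolate genes.

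Some genes of anthocyanin synthesis were called lower in ap1/cal. Of 20 listed flavonoid genes 18 reached the minimum value, and of these 5 were called lower and 0 higher, against 0.669% called lower among all genes, with a list median of -0.18 on the log2 scale. LDOX, the anthocyanidin synthase, had 43.4, 53.5 and 35.8 in ap1/cal, against 178, 165 and 126 in Col-0 (log2 fold change -1.80 ± 0.19 SE, limma adjusted p = 0.0043). DFR, the reductase before it, had 43.1, 53.1 and 31.2 in ap1/cal and 150, 219 and 93.7 in Col-0 (log2 fold change -1.78). UGT79B1 and AT5MAT, which decorate anthocyanins, and TT19, which is needed to carry them to the vacuole, had log2 fold changes of -1.85, -1.39 and -1.41. CHS, the entry enzyme, overlapped between genotypes, with 6253, 6700 and 5588 in ap1/cal and 6491, 7501 and 6198 in Col-0. PAP1, the MYB activator of the late genes, had 14.9, 11.5 and 4.87 in ap1/cal and 35.6, 42.2 and 32.3 in Col-0, just outside the threshold (log2 fold change -1.83, adjusted p = 0.051). All 5 called genes were also called lower under SNP, with log2 fold changes from -1.10 to -0.76. LDOX kept its call when any 1 library was left out, but the count was 1 without any 1 of the ap1/cal libraries and 3 without Col-0 replicate 1 or 2.

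Some cell wall genes of the root hair were called higher in ap1/cal, by less than 2-fold. Extensins are hydroxyproline-rich wall glycoproteins, and several are made chiefly by root hairs. Of 17 root hair genes, 3 were called higher and 0 lower, against 0.359% called higher among all genes, and the list median was 0.45, with 16 of 17 values positive. LRX1, a leucine-rich repeat extensin of the root hair wall, had 884, 929 and 854 in ap1/cal, against 517, 501 and 536 in Col-0 (log2 fold change 0.78 ± 0.07 SE, limma adjusted p = 0.0038). The proline-rich protein PRP3 had 1933, 1993 and 1929 in ap1/cal and 1299, 1123 and 1057 in Col-0 (log2 fold change 0.76), and RHS15 had 0.92. Replicates were tight here, which let differences of less than 2-fold pass the test.

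The extensin family, again picked by its annotation after values had been seen, held 20 tested genes, of which 10 were higher and 0 lower, against 0.359% called higher among all genes, with a median of 0.63. EXT10 had 3052, 3175 and 3166 in ap1/cal and 1646, 1566 and 1553 in Col-0 (log2 fold change 0.98, adjusted p = 0.00085). HRGP1, annotated as a hydroxyproline-rich glycoprotein and not counted in the family, had 5345, 5603 and 5070 in ap1/cal and 3070, 3199 and 3114 in Col-0 (log2 fold change 0.77). AT4G08410 and AT4G08400 had log2 fold changes of 1.00 and 0.94, but extensins are repetitive, and 33.2 and 48.6% of the windows of these genes occur in other genes, as do 21.3% of those of EXT10. Summed root markers overlapped between the genotypes, and 0 of the 6 tested root markers were called by limma (2 at an unadjusted p below 0.05).

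Under SNP several root hair genes and extensins had the opposite order. Of the 3 root hair genes called higher in Mock, 1 was called lower under SNP and 2 were not called, and of the 10 extensins 4 were called lower and 6 were not called. Of 11 root hair genes tested there, 7 were called lower in ap1/cal, with a median of -1.68, and of 19 extensins tested there, 7 were lower, with a median of -1.48. The difference between the contrasts was called for 12 root hair genes and 11 extensins. When all 12 libraries shared 1 estimate of the spread, 0 root hair genes and 0 extensins were called in Mock. The extensin count was 5 or 6 without any 1 of the ap1/cal libraries, and LRX1, EXT10 and HRGP1 stayed called there.

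**Figure D4:**
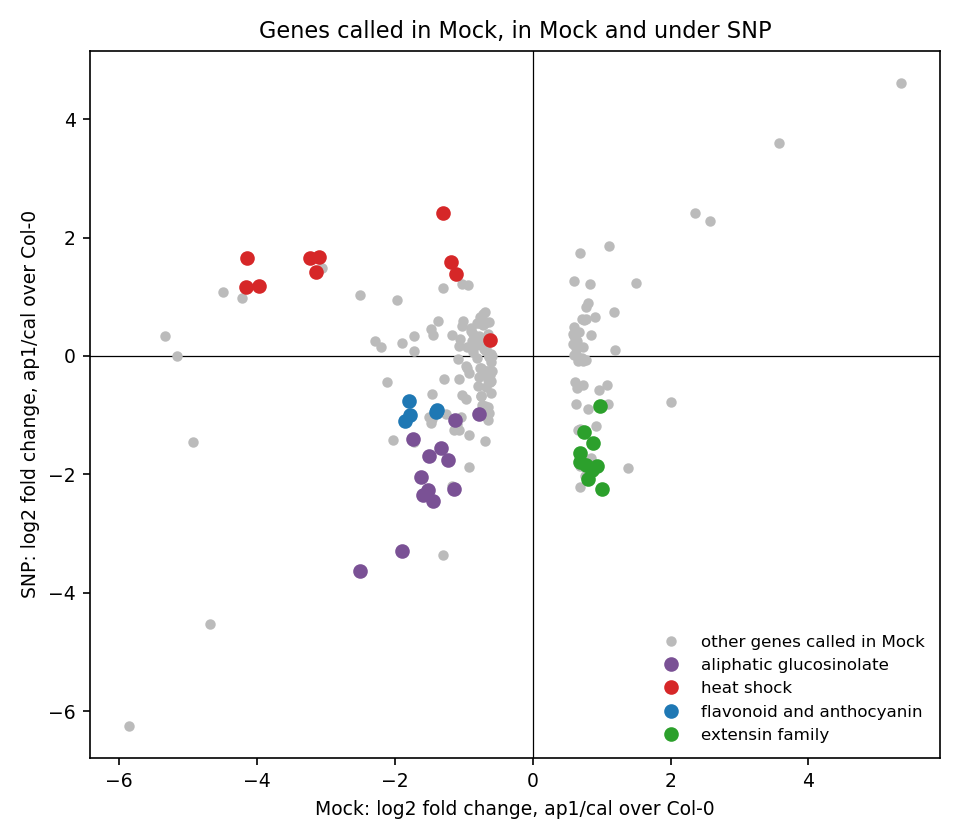
Log2 fold change of ap1/cal over Col-0 under SNP (vertical) against that in Mock (horizontal) for the genes called in Mock and tested under SNP, coloured by gene group. Aliphatic glucosinolate genes lie at negative values on both axes, heat shock genes at negative values in Mock and positive values under SNP, and extensins at positive values in Mock and negative values under SNP.

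Other rises were scattered over functions. WRKY33, a defence transcription factor that drives camalexin synthesis, had 1745, 1339 and 1330 in ap1/cal, against 735, 754 and 767 in Col-0 (log2 fold change 0.96 ± 0.11 SE, limma adjusted p = 0.0055). ACD6, an ankyrin protein that promotes salicylic acid signalling, had 228, 182 and 186 in ap1/cal and 108, 110 and 109 in Col-0 (log2 fold change 0.85), and under SNP it was called lower, at -1.72. AT1G56660, annotated as a MAEBL domain protein, had 201, 145 and 203 in ap1/cal and 35.6, 63.3 and 38.6 in Col-0 (log2 fold change 2.00), and it too was called lower under SNP, at -0.78. AGO3, an argonaute of the small RNA pathway, had 181, 122 and 132 in ap1/cal and 66.4, 60.6 and 73.7 in Col-0 (log2 fold change 1.09). AGP30, an arabinogalactan protein, and AT2G39040 had log2 fold changes of 1.19 and 1.02, and BT2, a nitrate-responsive scaffold protein, had 0.59. WRKY33 and AT1G56660 kept their calls when any 1 library was left out. AGO3 and ACD6 lost theirs without any 1 of 4 libraries, all but Col-0 replicates 1 and 2. AGP30 lost its call without any 1 of the ap1/cal libraries or Col-0 replicate 1 or 3. BT2 lost its call without any 1 of the ap1/cal libraries or Col-0 replicate 1 or 2. AT2G39040 was not called without ap1/cal replicate 1 or 2 or Col-0 replicate 1 or 3.

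CRA1, which encodes a seed storage globulin, was the only called member of the marker lists. It had 23.8, 37.2 and 209 in ap1/cal, against 6.31, 2.76 and 3.28 in Col-0 (log2 fold change 3.57 ± 0.70 SE, limma adjusted p = 0.048). ap1/cal replicate 3 was far above the other libraries. CRA1 reached the minimum in ap1/cal alone, so that its separation follows from the filter. Under SNP CRA1 was again higher in ap1/cal, at 3.59. The call was lost without Col-0 replicate 2 or 3, with a pseudocount of 5 and with robust moderation, and CRA1 could not be tested without an ap1/cal library, replicate 3 included.

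Several single falls belonged to hormone, nutrient and cold responses. FLC, the repressor of flowering, had 137, 140 and 134 in ap1/cal, against 224, 194 and 243 in Col-0 (log2 fold change -0.67 ± 0.11 SE, limma adjusted p = 0.029), but its call was lost without any 1 of the ap1/cal libraries or Col-0 replicate 3. FER1, a ferritin that stores iron, had 2974, 2863 and 4151 in ap1/cal and 8165, 5408 and 7405 in Col-0 (log2 fold change -1.07). COR15A and COR15B, which protect chloroplast membranes during freezing, had log2 fold changes of -1.47 and -1.06. APR3, an adenosine phosphosulphate reductase of sulphate assimilation, had -0.81, and JAZ6, a repressor of jasmonate signalling, had -0.65. FER1, COR15A, COR15B, APR3 and JAZ6 each lost their call without ap1/cal replicate 2, and also without Col-0 replicate 3. FER1 and the other 3 ferritins did not move as a set, since 3 of the 4 were not called.

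Of 26 lists of pathways and functions, 12 had no called member. Among them were shoot meristem genes (27 tested, median -0.01), cell cycle genes (22 tested, median -0.03) and DNA methylation genes (34 tested, median 0.05), of which 6, 1 and 4 had an unadjusted limma p below 0.05, a level that 17.0% of all tested genes reached. Auxin and growth genes (34 tested, median -0.01) and cytokinin genes (16 tested, median 0.05) also had no call, with 4 in each list at that level. Photosynthesis genes also had no call, but 30 of the 32 had positive values, with a median of 0.22. Of 21 jasmonate genes JAZ6 was called and of 26 floral genes FLC, where 1.03% of all tested genes were called. The jasmonate genes had 20 negative values, with a median of -0.42. At an unadjusted limma p below 0.05 were 11 jasmonate genes, 8 floral genes and 11 of 21 clock genes, which had no call. Of the 17 genes that the study lists by locus, AP1 and CAL among them, 11 could be tested and 0 were called by limma (3 at an unadjusted p below 0.05). The nitrate reductase genes NIA1 and NIA2, a route to NO in plants, had log2 fold changes of 0.30 and 0.10, NOA1 had 0.13, AGO4 had 0.10, MET1 had 0.31 and the response regulator ARR7 had -0.42. The boundary gene CUC2 differed most of these, with 10.2 to 14.9 in ap1/cal and 20.6 to 26.0 in Col-0 (log2 fold change -0.85, adjusted p = 0.14), and it was called at a fold of 1.5 with an unadjusted p below 0.01. WUS was not analysed here. CLV3, UFO and DRM1 were not tested, and UFO had 1.49, 3.99 and 1.95 in ap1/cal and 2.27, 4.69 and 5.51 in Col-0. At these low values a difference in CLV3 or UFO was not detectable in whole seedlings.

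Over all genes, the genotypes differed far more under SNP, with 3387 of 19570 genes called (17.3%). Of the 206 genes called in Mock, 195 could be tested under SNP, and 64 of them (32.8%) were called with the same sign, which is 1.89% of the genes called there. A further 37 were called with the opposite sign, 94 were not called and 11 were not tested. The split differed by direction: of the 134 falls, 48 were lower and 22 higher under SNP, and of the 72 rises, 16 were higher and 15 lower. The difference between the contrasts was called for 110 of the 206 genes, including all 37 with opposite signs, against 14.6% of all tested genes. It uses the Mock libraries by which the 206 genes were picked. Without ap1/cal replicate 1, 2 or 3, or Col-0 replicate 3, in Mock, the number called with the same sign was 27, 28, 30 and 34.

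Because AP1 and CAL lie on chromosome 1, called genes were placed by the order of their locus identifiers, to see whether they clustered near the mutations. Among the 250 tested genes on either side of AP1, 8 of 500 were called (1.60%), and among those around CAL 4 of 500 (0.80%), against 1.03% of all tested genes. Within 10 genes on either side 0 of 20 were called at either locus. With 1 library left out, the counts were as low as 1 at AP1 (without ap1/cal replicate 1 or 2 or Col-0 replicate 3, and 2 without ap1/cal replicate 3) and 1 at CAL (without ap1/cal replicate 2 or 3 or Col-0 replicate 3, and 2 without ap1/cal replicate 1). Chromosome 1 as a whole held 57 calls among 5268 genes (1.08%), and chromosomes 2 to 5 held 0.864, 0.967, 1.45 and 0.879%. The densest windows of 100 consecutive genes held 5 calls, and that on chromosome 1, which ran from AT1G53300 to AT1G54390 and held MRD1, HEI10, AT1G53540 and ESP, had lower values only. Called genes lay next to each other in 11 pairs, which included relatives such as CYP79F1 with CYP79F2, COR15A with COR15B and HSP17.6A with HSP17.6II. Of the 206 called genes, 51 overlap a gene on the opposite strand and 41 share over 5% of their windows with another gene. Neither was counted over all tested genes, and no expected number of neighbouring pairs was worked out. These counts are descriptions of the called genes.

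**Figure D5:**
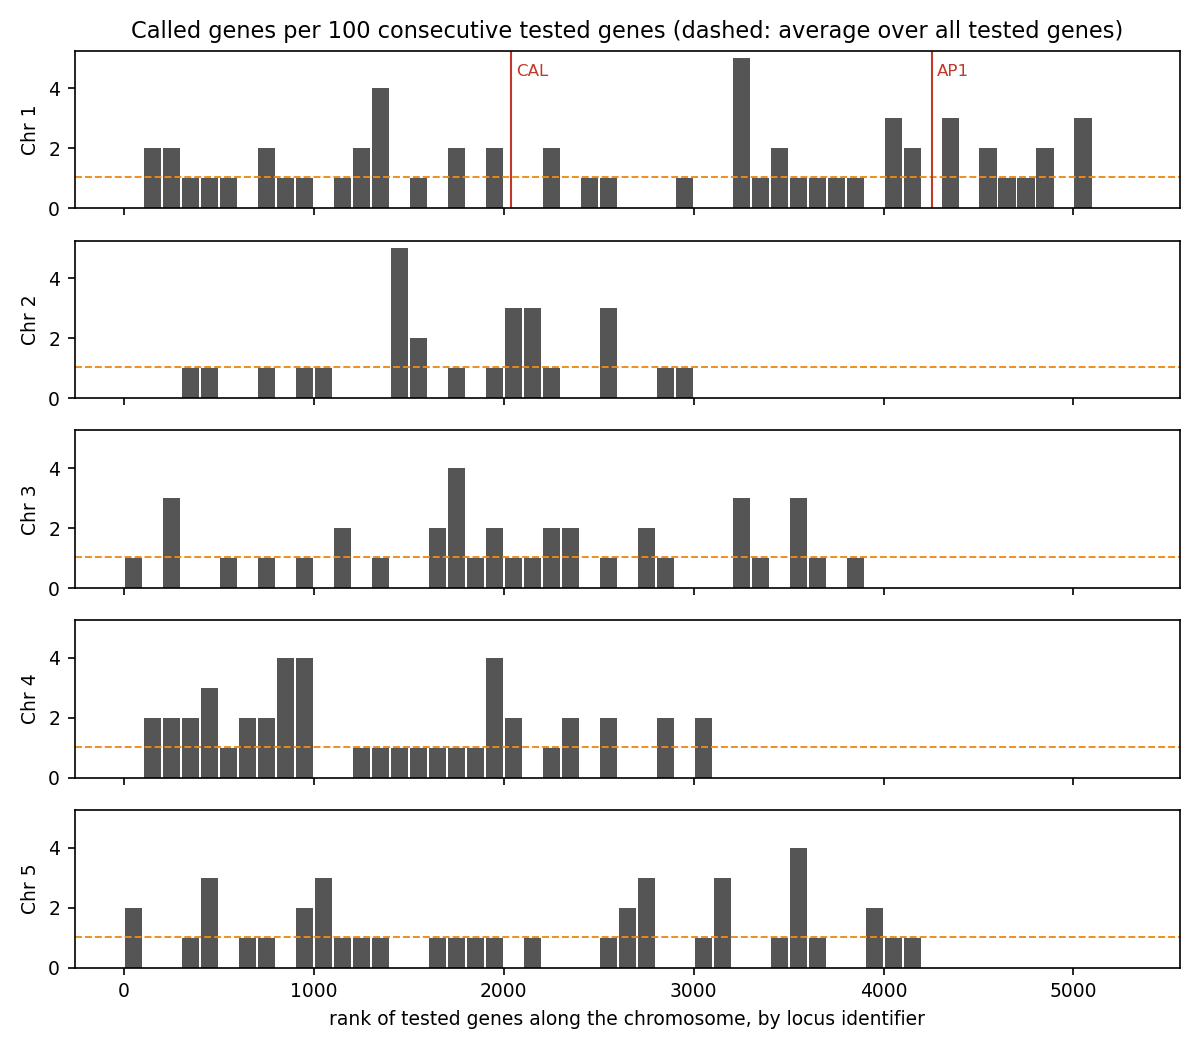
Called genes per 100 consecutive tested genes along each chromosome, ordered by locus identifier, with the average over all tested genes dashed and the places of AP1 and CAL marked on chromosome 1. The highest bars stand at 5 calls of 100 genes, and 0 of the 20 genes nearest to AP1 or to CAL were called.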

How the data were processed

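Per the labels, poly(A) RNA of whole seedlings was built into directional libraries. For each genotype 1 table was deposited, and its values are a signal per gene that the authors had normalized within that table. Although described as raw counts, the values behaved as read estimates divided by a size factor: in genes with 1 transcript all values up to 50 were multiples of 1 step per library (tolerance 0.01), but those of genes with several transcripts were not, so no count test was run. The submitters' processing notes name FastQC, STAR, DESeq2 and the TAIR10 build, and the methods name DEGseq. The counting tool and its use of strand are not given in the sources used here.

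The tables were joined on gene identifier, and the 6 Mock columns were rescaled together by the median of ratios, with factors from 0.980 to 1.03. The 6 SNP columns were rescaled on their own, so that levels in Mock and SNP are not on 1 scale, and for the difference between the contrasts all 12 were rescaled together. Genes in both tables with at least 10 in at least 3 columns were tested with limma 3.58.1 in R 4.3.3 on log2(value + 1), with empirical Bayes moderation and a mean-variance trend. Fold changes on this scale understate those of low genes. Calls needed at least a 1.5-fold difference and an adjusted p (Benjamini-Hochberg) below 0.05. The procedure was tested on simulated data. SD, SE and p-values measure the spread between 3 libraries per group, and nothing in the labels says that these came from separate cultures. Libraries held 22.5 to 59.7 in units of 1e6 estimated reads, and intervals cover the spread between libraries alone. Replicates of a group differed by more than counting noise (median chi-square per gene of 1.44 to 3.92), and 0 pairs were identical.

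Members and lists were chosen with earlier results of these data known. Named genes were the 12 largest rises and falls with a group mean of at least 100 and no overlap, the 5 smallest p in each direction, called members of the lists, the genes the study lists by locus, and the 5 highest genes of each table that were listed there alone. HEI10, QQS, TGG1, CHS, PAP1, HSP101, HSFA2, MAM3, SUR1, FMOGS-OX4 and the MYB factors were added after their values were seen, as members of a list or neighbours of a named gene. GSTU20 came from the rule. Of the tested genes, 99.4% were matched to the TAIR10.1 annotation, used for names, overlaps and shared 75-base windows. As the files rest on TAIR10, no coordinates or sequences are given, and the planned promoter motif search was not run. Alternatives covered the scaling, pseudocount, filter, threshold, variance model, replicate block and left-out libraries. Genes in 1 table alone were not tested between genotypes.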

Additional observations from a re-analysis of the deposited data

Results flagged for a closer look

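For 30 of the named genes called in Mock, the genotype difference under SNP was not the same as in Mock. The limma contrast over all 12 libraries was used, at an adjusted p below 0.05 and a change of at least 1.5-fold. It was called for 110 of the 206 Mock calls and for 14.6% of all tested genes. The genes were picked by their Mock difference and the contrast uses the same Mock libraries, so it is no independent test of them. Values are the log2 fold change of ap1/cal over Col-0 under SNP minus that in Mock. Heat shock genes had positive values throughout, with 5.83 for AT1G53540, 5.36 for HSP17.6II, 5.19 for HSP17.6A, 4.90 for HSP21, 4.81 for AT1G07400, 4.58 for HSP17.4, 3.75 for HSP18.2, 2.79 for ROF2, 2.52 for HSP70 and 0.93 for DREB2A. Other falls in Mock that were smaller or turned under SNP were ABCG40 (5.70), AT2G38240 (5.19), UGT74E2 (3.55), AACT1 (3.51), LDOX (1.07) and APR3 (1.03).

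Wall and root hair genes that were higher in ap1/cal Mock had negative values: -2.78 for AT4G08400, -2.76 for PRP3, -2.62 for HRGP1, -2.60 for LRX1 and -2.07 for RHS15. The defence genes ACD6 and WRKY33 had -2.55 and -1.51, ESM1 had -1.16, and AT1G56660, AT2G39040 and AGO3 had -2.76, -2.28 and -1.88. Of the aliphatic glucosinolate genes called in Mock, BCAT4, IPMI1 and IPMI2 had -1.38, -0.99 and -0.72, since their lower level in ap1/cal was more pronounced under SNP.

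Some genes with high values were listed for 1 genotype alone and so entered no comparison. They are deposited values, scaled within a table. The plant defensins PDF1.2b, PDF1.3 and PDF1.2, which respond to jasmonate and ethylene, had Mock means of 59.5, 41.6 and 41.4 in the Col-0 table. The sulphate transporter SULTR1;3 had a Mock mean of 31.0 in the Col-0 table. AT1G64795 had a Mock mean of 85.1 in the ap1/cal table. A gene outside a table may have had no reads in it or may have been removed, and which of these holds is not given in the sources used here.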

How the results depend on the processing

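Each of the 206 called genes kept its sign in every alternative in which it was tested, and 0 results reversed. Called in each alternative were AT5G24240, MRD1, AT1G29720, GH9B15, CYP79F1, IPMI2, GSTU20, HSP17.6A, HSP17.6II, AT1G53540, AT1G09500 and ChlAKR. The count of 206 in Mock was 13 when limma tested against a fold of 1.5 and 439 at a fold of 1.5 with an unadjusted p below 0.01, and 61 to 352 with 1 library left out. The 3387 calls under SNP became 7867 at any fold and 673 in the test against a fold of 1.5, and the 3009 calls for the difference became 4845 and 348. The 64 genes called with the same sign became 109 at any fold, 7 in the test against a fold of 1.5 95 without ap1/cal replicate 3 and Col-0 replicate 1, and 27 to 67 with 1 library left out. The higher share of the Mock calls, 35.0%, was 17.6% after scaling by library total, 26.7% as deposited, 19.9% with all 12 libraries in 1 fit, 23.1% in the test against a fold of 1.5, 23.1 to 41.3% with 1 library left out and 52.3% without ap1/cal replicate 3 and Col-0 replicate 1 (added after seeing the data). In the test against a fold of 1.5, calls were 2 for aliphatic glucosinolate, 3 for heat shock and 0 for flavonoid, root hair and extensin genes. With all 12 libraries in 1 fit, they were 20 for heat shock and 0 for root hair and extensin genes. Heat shock genes numbered 20 at the unadjusted p and 5 to 17 with 1 library left out, extensins 5 to 10, flavonoid genes 1 to 5 and 3 at a minimum of 50. Without ap1/cal replicate 3 and Col-0 replicate 1, flavonoid genes numbered 3, root hair genes 5 and extensins 11. Around AP1, 2 genes were called within 100 genes, 13 at any fold, 0 in the test against a fold of 1.5 and 1 to 12 with 1 library left out. Around CAL, these were 0, 8, 1 and 1 to 6, with 8 within 500 genes and 8 at the unadjusted p. The cause of these shifts was not tested, apart from the smaller number of samples or the other threshold that the alternative itself sets.

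Whether samples with the same replicate number belonged together is not given in the labels. Same-numbered ap1/cal and Col-0 Mock libraries deviated from their group means with correlations of -0.22, 0.23 and 0.00. Not every library correlated best with its own number (ap1/cal replicate 3 did so with Col-0 replicate 1, at 0.34). With 3 libraries per group, whose deviations depend on each other, these correlations cannot decide the question. With the replicate number as a block, 227 genes were called in Mock, of which 175 were among the 206, and 17 heat shock genes were lower. Depth limits genes near the minimum of 10, where 1 read was worth 0.434 to 0.965 in ap1/cal Mock and 0.780 to 0.940 in Col-0 Mock.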

Other observations

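Defensin transcripts varied widely between Col-0 libraries. PDF1.2b had 53.8, 25.4 and 99.3 as deposited in Col-0 Mock replicates 1, 2 and 3 and 0 in each Col-0 SNP library, and PDF1.2c had 34.3, 6.58 and 67.8 in Col-0 Mock. Both were highest in Col-0 replicate 3, and as close relatives they can share reads. Values of SULTR1;3 were 28.9, 43.6 and 20.4 in Col-0 Mock libraries, and under SNP they were 60.6, 67.1 and 48.9. AT1G64795 had 84.2, 79.4 and 91.6 in ap1/cal Mock and 289, 273 and 301 in ap1/cal SNP. Of the 189 genes listed for Col-0 alone 4 had all Mock values at 10 or more, and of the 242 listed for ap1/cal alone 1 did.

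Several genes outside the rule for naming, chosen here after their values were seen, were lower in ap1/cal Mock and highest in Col-0 replicate 1. ELI3-2, an alcohol dehydrogenase first found as a pathogen-induced transcript, had 0, 0.443 and 1.95 in ap1/cal, against 74.2, 19.7 and 30.7 in Col-0. APX2, the heat-inducible ascorbate peroxidase, had 0, 3.10 and 1.95 in ap1/cal and 25.7, 16.0 and 14.2 in Col-0. Its call was lost with a pseudocount of 0.5, with the replicate block and without any 1 of the ap1/cal libraries. ELI3-2 and APX2 reached the minimum in Col-0 alone, so that their separation follows from the filter. GPT2, a glucose 6-phosphate transporter of plastids, had 33.5, 31.9 and 32.2 in ap1/cal and 226, 88.2 and 112 in Col-0. All 3 genes were called higher in ap1/cal under SNP, with log2 fold changes of 1.09 for ELI3-2, 1.48 for APX2 and 0.95 for GPT2. YUC9, a flavin monooxygenase of auxin synthesis, went the other way in Mock, with 59.5, 66.9 and 60.4 in ap1/cal and 29.5, 25.3 and 28.4 in Col-0.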
